A study of Homo sapiens with 9 samples.

Results

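The cytosolic ribosomal protein genes of MDA-MB-231 cells are described here across cells depleted of LOXL2 and control cells. Members were taken from the gene table by symbol: protein-coding genes named RPL or RPS followed by a number, together with RPLP0, RPLP1, RPLP2 and RPSA, without pseudogenes, RPS27L, RPL22L1, RPL39L and the RPS6K kinase genes. The rule found 87 genes of the 63657 in the table. Of these, 77 encode the proteins of the standard cytosolic ribosome, 46 for the large and 31 for the small subunit, and are called core genes below. The other 10 entered by their names alone, as paralogs, a Y-linked copy, readthrough loci or, for RPS19BP1, a protein that binds RPS19. MDA-MB-231 cells are a widely used human line derived from a breast cancer without hormone receptors. RNA was sequenced in 2 libraries of shLOXL2 cells, which carry a short hairpin RNA against the lysyl oxidase-like enzyme LOXL2, and in 2 libraries of shControl cells, labelled as the control. ChIP-seq of H3 and H3K4ox and ATAC-seq of the same line make up the rest of the series and were not used. The labels give no hairpin sequence, do not say whether several hairpins or clones were used, and do not specify whether a group's 2 libraries are separate cultures. The p-values therefore reflect variation among these libraries alone, and it may be technical.

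The ribosome joins amino acids in a large subunit and reads the mRNA in a small one, and a cell needs each of its proteins in about equal number. Messenger RNAs of ribosomal proteins are among the most abundant of growing cells, and most begin with a C followed by a run of pyrimidines, the 5′ terminal oligopyrimidine or TOP tract, through which mTORC1 and LARP1 set their translation and stability. Ribosomal protein genes are copied into the genome as processed pseudogenes more often than almost any other family, and these copies resemble the mRNA closely enough to share short reads with it.

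The values were the authors' FPKM, in which fragment counts are divided by transcript length and by library size. LOXL2 stood at 15.2 and 12.1 FPKM in the shLOXL2 libraries, against 85.5 and 84.5 FPKM in the shControl libraries. The line's markers were present, with VIM between 2011 and 2104 FPKM and ZEB1 between 49.0 and 51.1 FPKM. CD44 stood at 349 and 340.0 FPKM in shLOXL2 and 457 and 447 FPKM in shControl cells. MSN had 270 and 272 FPKM in shLOXL2 and 229 and 228 FPKM in shControl cells, and CAV1 had 275 and 282 against 245 and 237 FPKM. Of luminal markers, ESR1 and PGR were at 0.0822 FPKM or less in all 4 libraries, and GATA3 lay between 0.944 and 1.66 FPKM. Of other cell types, PECAM1 was listed at 0 in all 4 libraries, PTPRC at 0.992 FPKM or less, and COL1A1, a fibroblast collagen, at 8.02 and 7.43 FPKM in shLOXL2 against 4.12 and 4.73 FPKM in shControl cells; the part of such cells in the results was not tested. FPKM sums of the libraries were 1330440 and 1369370 in shLOXL2 and 1244380 and 1221570 in shControl cells, with a mitochondrial share of 22.8% and 22.1% in shLOXL2 and of 20.4% and 18.5% in shControl cells. In bulk RNA, fewer cells that express a gene and less RNA per cell cannot be told apart.

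Start-site sequences of RefSeq (GRCh38.p14) were available for 62 of the 77 core genes. A C at the annotated start followed by at least 4 further pyrimidines, C or T, was found for 46 of the 62 genes (74.2%), against 6.24% of 15843 protein-coding genes with such sequences. The share was 73.7% of 38 large subunit genes and 75% of 24 small subunit genes. The letters CCGGAA on either strand, the core of a site for ETS factors, stood within the 300 bases around the start of 56.5% of the core genes and 26.6% of all protein-coding genes. Among the 9345 protein-coding genes with sequences and a mean of 1 FPKM or more, 36.6% held these letters and 7.66% a TOP start. On the gene's strand the reverse, TTCCGG, can overlap the tract. The windows below reach from 10 bases before the annotated start to base 20 after it and show the genes on which the comparison turns, with RPLP0 of the stalk for reference. Capitals mark the pyrimidine tract of genes that met the rule; a window without capitals says only that this annotated start, the only one or 1 of 3 for RPL32 and RPL15, does not begin with one. The first 6 rose in shLOXL2 cells.
RPL34 (chr4:108620566-108620595, plus strand): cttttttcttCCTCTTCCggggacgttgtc
RPL31 (chr2:101002279-101002308, plus strand): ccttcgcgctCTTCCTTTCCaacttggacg
RPL27A (chr11:8682782-8682811, plus strand): gaaggccttcCTTTTTCgtctgggctgcca
RPL26 (chr17:8383174-8383203, minus strand): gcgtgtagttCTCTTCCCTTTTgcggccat
RPS24 (chr10:78033853-78033882, plus strand): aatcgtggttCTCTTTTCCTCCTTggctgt
RPL32 (chr3:12840431-12840460, minus strand): ggtgacccttgacctcctgggatcgcatct
RPS28 (chr19:8321486-8321515, plus strand): gaagcacgtgactcctctccgccagaccgc
RPL7L1 (chr6:42879606-42879635, plus strand): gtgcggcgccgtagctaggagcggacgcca
RPL36A (chrX:101391001-101391030, plus strand): ctcgcggtttCTTTCTTTCCgcgccgatag
RPL15 (chr3:23916535-23916564, plus strand): tggggcctgctggaggagcttcacgcagtc
RPS26 (chr12:56041908-56041937, plus strand): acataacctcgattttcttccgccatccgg
RPLP0 (chr12:120201092-120201121, minus strand): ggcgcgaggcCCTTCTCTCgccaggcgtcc

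Levels listed for the core genes spread widely. The 77 genes had a median of 584 FPKM over the 4 libraries, with 27 genes at 1000 FPKM or more, 15 between 500 and 1000 FPKM and 22 between 100 and 500 FPKM. A further 3 stood between 50 and 100 FPKM, 8 lay below 50 FPKM and 2 were listed at 0. RPL30, a large subunit protein, was the highest, with 2276 and 2378 FPKM in shLOXL2 libraries and 2129 and 2156 FPKM in shControl libraries. RPL37A followed with 2226 and 2406 FPKM in shLOXL2 and 2146 and 2149 FPKM in shControl cells. RPL27A, RPL36 and RPS19 completed the 5 highest, at 1917, 1879 and 1871 FPKM on average. The lowest core gene above 0 was RPL7, a large subunit protein, with 5.59 and 6.11 FPKM in shLOXL2 and 5.28 and 4.77 FPKM in shControl cells. FPKM is per length, so these levels can be set side by side between genes, but a gene with close copies may hold only part of its reads.

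**Figure D1:**
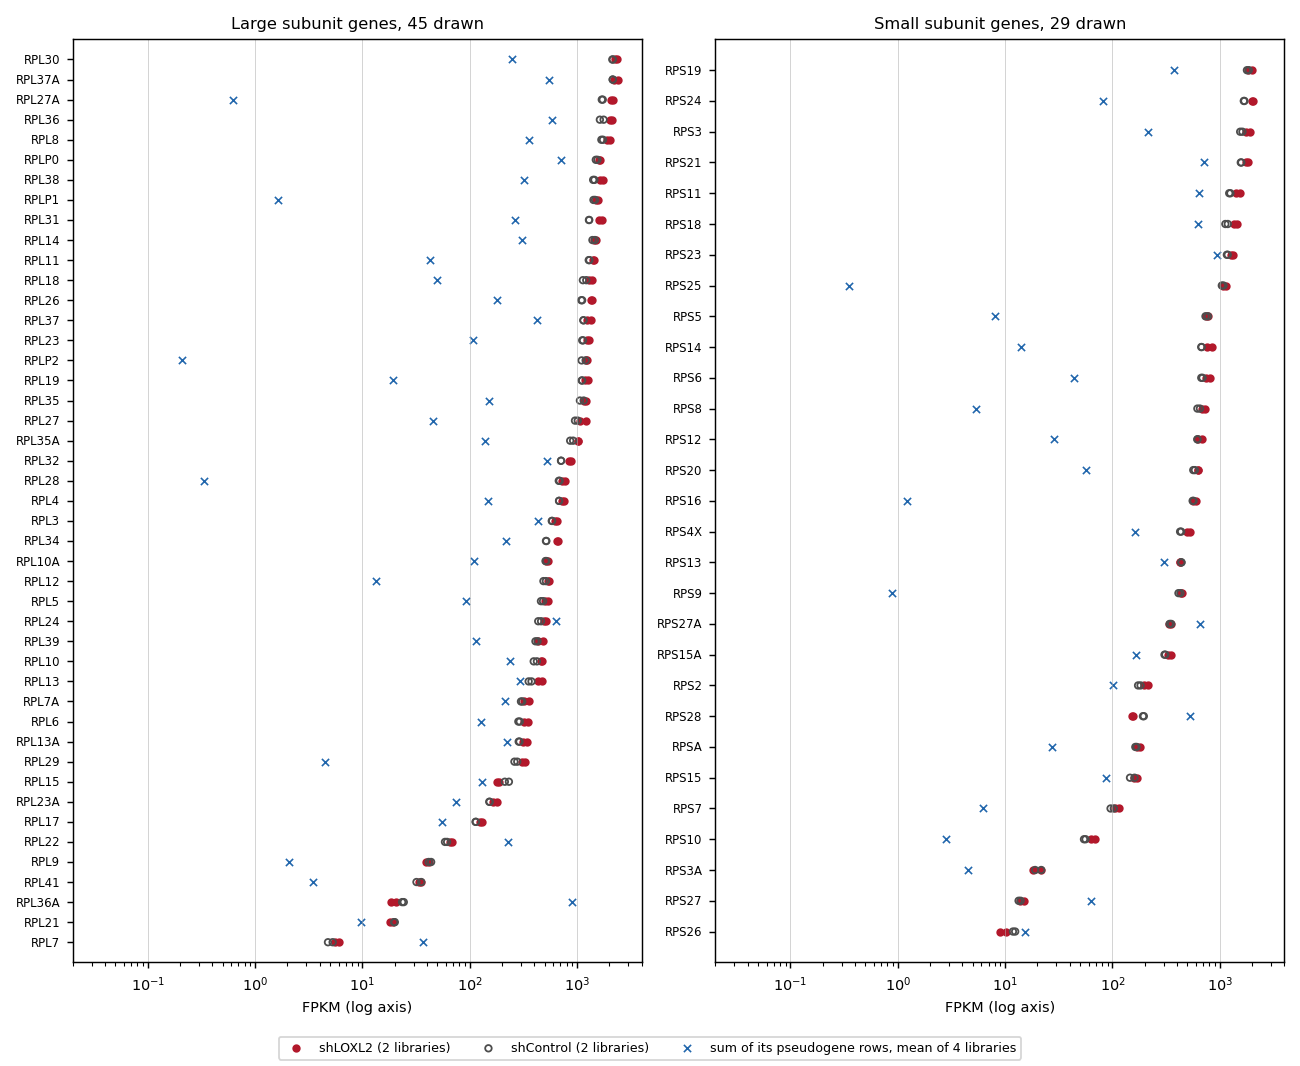
FPKM of the core genes on a log axis in the 2 shLOXL2 (filled) and 2 shControl (open) libraries, with the summed FPKM of the rows named as its pseudogenes (crosses, mean of 4 libraries), large subunit left and small subunit right. Genes listed at 0, RPS29 among them, and 1 large subunit gene are not drawn; several genes at the foot of each panel, such as RPL36A and RPS27, lie below their pseudogene sums.

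Among the genes listed at 0 in all 4 libraries were 2 of the core, among them RPS29 of the small subunit, besides RPL10L, a testis paralog of RPL10, and RPS4Y1, the Y-linked copy of RPS4X. EEF1A1, the elongation factor that every cell uses, was listed at 0 in the same libraries, so a 0 here can be a failed estimate. Rows named as pseudogenes were found for all 77 core genes, 1580 rows in all, of which 229 reached a mean of 1 FPKM. For 11 genes their summed FPKM exceeded that of the gene itself, among them RPL7, RPL22, RPL24, RPL36A, RPS26, RPS27, RPS27A, RPS28 and RPS29. RPS29P16 alone had 1147 and 1257 FPKM in shLOXL2 and 1128 and 1127 FPKM in shControl cells, a level among the higher core genes, while RPS29 was at 0. RPL36A averaged 21.7 FPKM and RPL36AP37 891 FPKM. The sources used here do not say how reads were shared between a gene and its copies, and values of such genes are uncertain.

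Summed over the core genes, ribosomal protein mRNA stood at 59576 and 62646 FPKM in shLOXL2 libraries, against 53713 and 55246 FPKM in shControl libraries. The large subunit genes summed to 39402 and 41393 FPKM in shLOXL2 and to 35312 and 36326 FPKM in shControl cells. The small subunit genes summed to 20174 and 21252 FPKM in shLOXL2 and to 18401 and 18921 FPKM in shControl cells. Both subunits were thus higher in both shLOXL2 libraries. All 87 members took 9.88% and 10.2% of the FPKM of nuclear protein-coding genes in shLOXL2 cells, against 9.24% and 9.42% in shControl cells, and the groups did not overlap. Of the sum over every gene they took 4.52% and 4.62% in shLOXL2 against 4.36% and 4.57% in shControl cells, where shLOXL2 replicate 1 lay between the control libraries. The pseudogene rows of the core genes summed to 17514 and 18534 FPKM in shLOXL2 and 16154 and 16548 FPKM in shControl cells, higher in both shLOXL2 libraries as well.

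Of the 87 members, 81 reached a mean of 1 FPKM and were tested with limma within a fit of 16987 genes on log2(FPKM + 1), at a Benjamini-Hochberg adjusted p below 0.05. The comparison asks what depletion of LOXL2 does to expression. Of the members tested 6 rose (7.41%), where 8.35% of all genes tested rose, and 3 fell, where 8.54% of all genes fell, so the share of members called was near the background. Yet 69 of the 81 had a positive log2 change, against 49.3% of all genes tested. In 59 members both shLOXL2 libraries lay above both shControl libraries (72.8%), against 31.8% of all genes, and in 8 members both lay below, against 32.8% of all genes. The median log2 change of the members was 0.14, with quartiles of 0.066 and 0.20, and that of all genes tested was -0.0041. The changes were small, and those of the core genes that passed lay between -0.34 and 0.35. Over the 65 members at 100 FPKM or more the median was 0.15 and 61 were positive, while over 1158 other protein-coding genes at that level the median was 0.042 and 58.2% were positive. Without overlap, 83.1% of those members lay higher in shLOXL2 cells, against 46.7% of the other genes at that level. Yet 9.23% of those members rose, against 21.0% of the other genes at that level; this difference was not tested. The 16 tested members under 100 FPKM had 8 positive and 8 negative changes and a median of -0.00082.

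These results depended on the genes fitted, the scaling and each library. With protein-coding genes fitted alone, 40 members rose (49.4%), against 19% of 11216 genes, and 6 fell, against 19.4%; 69 members were positive, against 48.6% of those genes. Without a filter on low values 1 of 83 members rose, against 1.66% of all genes, and 3 fell, against 1.5%. When each library was rescaled to the same FPKM sum (TPM), which lowered the median of all genes to -0.12, 2 members rose, against 4.76% of all genes, and 6 fell, against 17.3%. Of the members 45 were then positive, against 31.9% of all genes; the median of the members was 0.013, which is 0.13 above that of all genes, as against 0.15 above it with FPKM as deposited and 0.069 above it with quantile normalization. With libraries rescaled to equal sums over nuclear protein-coding genes, 7 members rose, against 6.78% of all genes, and 5 fell, against 12.3%. Without any 1 of the 4 libraries a group held 1 library, so calls are not given. The median of the members then ranged from 0.10 to 0.18.

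**Figure D2:**
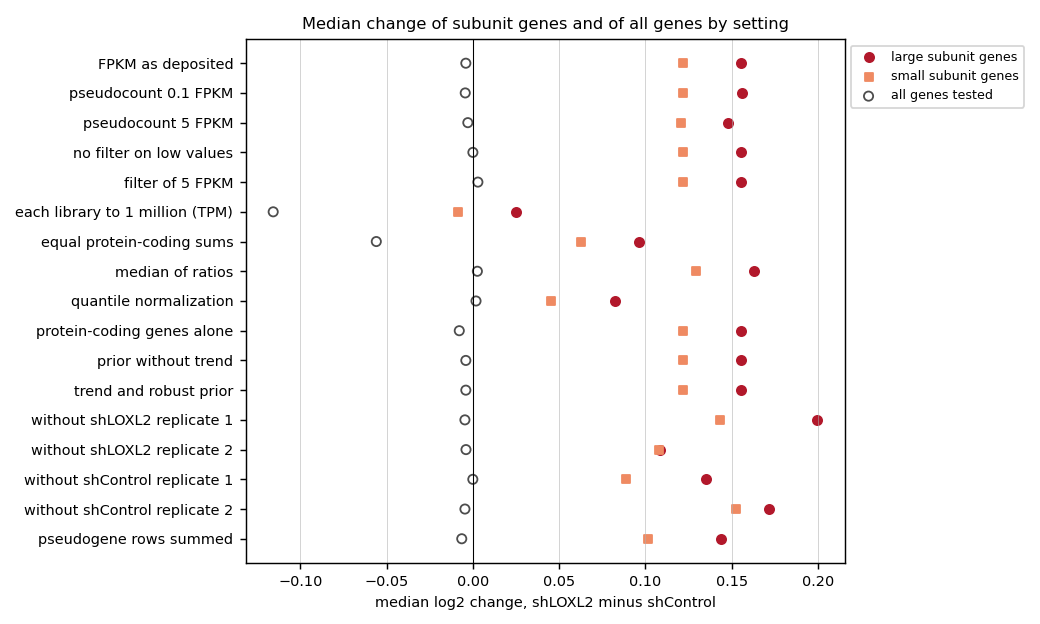
Median log2 change (shLOXL2 minus shControl) of large subunit genes (filled circles), small subunit genes (squares) and all genes tested (open circles) under each setting of the fit. Rescaling to TPM moved the median of all genes to -0.12 and those of the subunits to 0.025 and -0.0088, and both stayed above the median of all genes in each setting drawn.

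Of the 46 large subunit genes, all tested, 5 rose (10.9%, where 8.35% of all genes rose) and 0 fell in limma's test, and 42 had a positive log2 change. An unadjusted p below 0.05 in either direction was found in 6094 of all 16987 genes tested and in 27 of these 46. Their median was 0.16, and in 40 genes (87.0%, against 31.8% of all genes) the shLOXL2 libraries lay above the shControl libraries without overlap. Of the 29 small subunit genes tested, 1 rose (3.45%) and 1 fell, where 8.35% of all genes rose and 8.54% fell. Among the 29, 24 were positive and the median was 0.12. Here 17 lay higher (58.6%, against 31.8% of all genes) and 3 lower (against 32.8% of all genes) without overlap, while in 9 the groups overlapped. Between replicate libraries the median log2 level varied with an SD of 0.019 for the large and 0.047 for the small subunit; no test was made between the subunits, and both medians of change were 0.11 without shLOXL2 replicate 2.

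**Figure D3:**
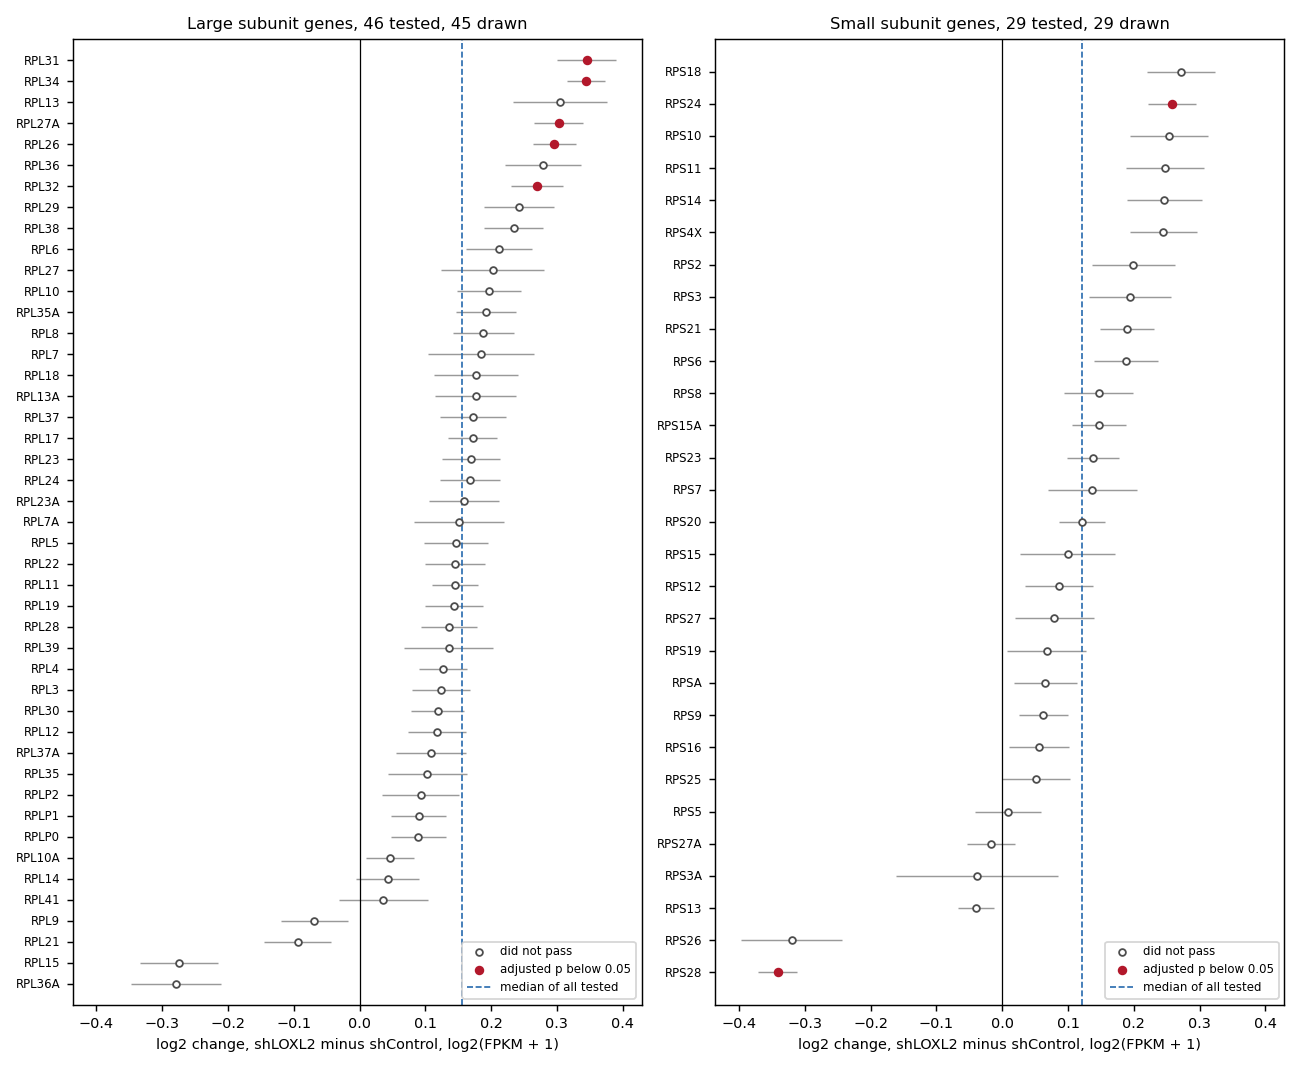
Log2 change (shLOXL2 minus shControl, on log2(FPKM + 1)) of the core genes, all tested ones but 1 of the large subunit, with its standard error from limma, large subunit left and small subunit right. Filled points passed an adjusted p of 0.05; the dashed line is the median of all tested, 0.16 for the large and 0.12 for the small subunit, and RPL36A, RPL15, RPS26 and RPS28 stand apart on the left.

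The large subunit genes that rose were RPL34, RPL31, RPL27A, RPL26 and RPL32. RPL34 (ENSG00000109475) had 649 and 659 FPKM in shLOXL2 libraries, against 513 and 517 FPKM in shControl libraries. Both depleted libraries lay above both controls, giving a log2 change of 0.34 ± 0.029 (SE, 2 libraries each, limma adjusted p = 0.0175). RPL31 (ENSG00000071082), a protein at the rim of the peptide exit tunnel, had 1596 and 1692 FPKM in shLOXL2 and 1289 and 1297 FPKM in shControl cells. The ratio of its means was 1.27 (log2 0.35 ± 0.044 SE, limma adjusted p = 0.0288). RPL27A had 2083 and 2151 FPKM in shLOXL2 and 1698 and 1734 FPKM in shControl cells (log2 0.30 ± 0.038 SE, limma adjusted p = 0.0277). RPL26, also at the exit tunnel and known to bind p53 mRNA and raise its translation, had 1348 and 1366 FPKM in shLOXL2 and 1095 and 1115 FPKM in shControl cells (log2 0.30 ± 0.032 SE, limma adjusted p = 0.0234). RPL32 had 834 and 876 FPKM in shLOXL2, and 709 FPKM in each of the shControl libraries (log2 0.27 ± 0.039 SE, limma adjusted p = 0.0347). In all 5 genes the shLOXL2 libraries were the higher ones, by 1.21 to 1.27 times in the ratio of means. Of these, RPL34 and RPL31 alone passed with TPM values, RPL34, RPL31 and RPL26 with quantile normalization, and RPL34 alone without a filter on low values.

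RPS24 (ENSG00000138326) was the small subunit gene that rose, with 1985 and 2048 FPKM in shLOXL2 and 1697 and 1674 FPKM in shControl cells (log2 0.26 ± 0.037 SE, limma adjusted p = 0.0328). It encodes a protein needed to process the small subunit's rRNA, and it did not pass with TPM values, with quantile normalization or without a filter. RPS18, of the small subunit's head, had the highest positive change of that subunit, with 1359 and 1437 FPKM in shLOXL2 and 1127 and 1188 FPKM in shControl cells, and just missed the threshold (log2 0.27, limma adjusted p = 0.0523).

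Other large subunit genes with higher shLOXL2 values missed the threshold. RPL13 had 428 and 475 FPKM in shLOXL2 and 354 and 376 FPKM in shControl cells and did not pass (log2 0.30, limma adjusted p = 0.0756). RPL36, at 2024 and 2094 FPKM in shLOXL2 and 1630.1 and 1767 FPKM in shControl cells, did not pass either (log2 0.28, limma adjusted p = 0.0596).

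RPS28 (ENSG00000233927), a protein of the small subunit's head near the mRNA exit, was the core gene that fell. It had 154 and 152 FPKM in shLOXL2 libraries, against 192 and 196 FPKM in shControl libraries, with no overlap. The log2 change was -0.34 ± 0.030 (SE, limma adjusted p = 0.0179). Its pseudogene row RPS28P7 was higher than the gene and moved the same way, with 430.3 and 482 FPKM in shLOXL2 and 576 and 611 FPKM in shControl cells (log2 -0.38, limma adjusted p = 0.0563). With its pseudogene rows summed in, RPS28 had a log2 change of -0.37 (limma adjusted p = 0.0402). Its call also held with TPM values, with equal protein-coding sums and with quantile normalization, and rests on 2 libraries in each group.

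Other core genes with lower shLOXL2 values did not pass with FPKM as deposited. RPL36A, a large subunit protein, had 20.6 and 18.4 FPKM in shLOXL2 and 23.4 and 24.3 FPKM in shControl cells (log2 -0.28, limma adjusted p = 0.0807). Its far higher pseudogene row RPL36AP37 had 885 and 919.9 FPKM in shLOXL2 and 877 and 884 FPKM in shControl cells, and the summed rows gave a log2 change of 0.027. RPS26, a small subunit protein at the mRNA exit, had 8.93 and 10.1 FPKM in shLOXL2 and 12.4 and 11.8 FPKM in shControl cells (log2 -0.32, limma adjusted p = 0.0780), and -0.030 with its pseudogene rows summed in. RPL15, a large subunit protein named after its values were seen, had 179.6 and 187 FPKM in shLOXL2 and 212 and 232 FPKM in shControl cells (log2 -0.27, limma adjusted p = 0.0645). RPL15P3 had 78.7 and 95.4 FPKM in shLOXL2 and 98.1 and 104.6 FPKM in shControl cells, and was thus lower as well. In RPL15, RPS26 and RPL36A the shLOXL2 libraries were lower without overlap, as in 32.8% of all genes tested. The 3 genes passed toward lower values when protein-coding genes were fitted alone, where 19.4% of those genes fell. RPL15 also passed with TPM values, equal protein-coding sums and quantile normalization, and RPS26 with TPM values and equal protein-coding sums.

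**Figure D4:**
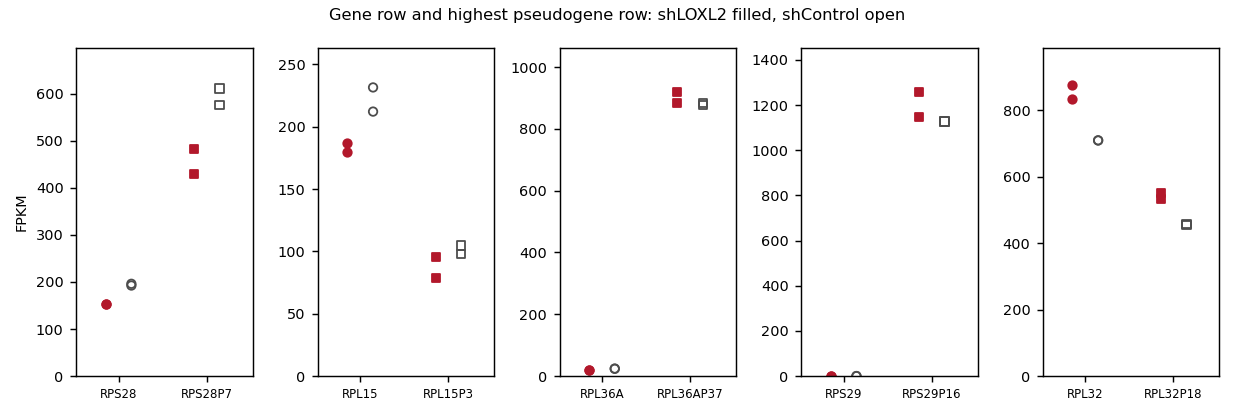
FPKM of 5 core genes (circles) and of the highest pseudogene row of each (squares), shLOXL2 filled and shControl open, on linear axes from 0. RPS28P7 and RPL15P3 lie lower in shLOXL2 cells as their genes do, RPL32P18 lies higher as RPL32 does, and RPS29 is at 0 while RPS29P16 stands at 1127 FPKM or more.

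Of the rises, RPL26, RPL31 and RPL32 had a highest pseudogene row that also rose: RPL26P19 (log2 0.31), RPL31P2 (log2 0.37) and RPL32P18 (log2 0.25). RPL32P18 had 532 and 550.0 FPKM in shLOXL2 and 454 and 457 FPKM in shControl cells. RPL27A rose with almost no pseudogene signal, its 4 pseudogene rows summing to 0.625 FPKM on average. All pseudogene rows were also summed into their genes, a setting chosen once the data had been seen. Then 8 of 83 members tested rose (9.64%, against 8.53% of all genes) and 3 fell. The 6 above and RPL10 were among the rises, and the median was 0.13.

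RPL5 and RPL11, which form a particle with the smallest ribosomal RNA and hold back MDM2 when ribosome assembly fails, had log2 changes of 0.15 and 0.14 (limma adjusted p = 0.138 and 0.0793). RPL11 had 1410.3 and 1451 FPKM in shLOXL2 and 1284 and 1304 FPKM in shControl cells, and RPL5 had 507 and 537 FPKM in shLOXL2 and 461 and 482 FPKM in shControl cells. The stalk proteins RPLP0, RPLP1 and RPLP2, which recruit elongation factors, lay close together at log2 0.090, 0.090 and 0.093. RPLP0 had 1589 and 1648 FPKM in shLOXL2 and 1494 and 1548 FPKM in shControl cells. All 3 changes turned negative with TPM values, between -0.041 and -0.038. Of the 8 exit tunnel genes, 2 rose (RPL26 and RPL31, above), where 8.35% of all genes rose, and all 8 were higher in shLOXL2 cells without overlap, against 31.8% of all genes, although RPL4 and RPL35 turned negative with TPM values, and the median was 0.15; the others were RPL4 (log2 0.13), RPL17 (0.17), RPL19 (0.14), RPL23A (0.16), RPL35 (0.10) and RPL39 (0.14). Of 12 tested genes of the small subunit's head, 1 fell (RPS28, where 8.54% of all genes fell), 0 rose, 10 were positive and the median was 0.077. After RPS28 the smallest p belonged to RPS18 and RPS10. RPS10 had 63.1 and 69.0 FPKM in shLOXL2 and 54.3 and 56.2 FPKM in shControl cells (log2 0.25, limma adjusted p = 0.0743). In that group 6 of 12 genes overlapped between the groups of libraries.

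Genes mutated in Diamond-Blackfan anaemia, an inherited failure of red cell formation, included 3 that rose (RPL26, RPL31 and RPS24) and 1 that fell (RPS28) of 17 tested, where 8.35% of all genes rose and 8.54% fell. RPS19, the gene most often mutated in that disease, had 1835 and 1996 FPKM in shLOXL2 and 1790.2 and 1863 FPKM in shControl cells, so the groups overlapped (log2 0.067, limma adjusted p = 0.474). Its sign turned with TPM values and with quantile normalization.

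Core genes with a TOP start and those without were set side by side, and their difference was not tested. Of 46 with a TOP start, 5 rose (10.9%, where 8.35% of all genes rose) and 0 fell, 41 were positive (89.1%) and the median log2 change was 0.14, with a lower quartile of 0.070. Of 15 tested genes whose annotated start lacked it, 1 rose and 1 fell (where 8.54% of all genes fell), 11 were positive (73.3%) and the median was 0.13, with a lower quartile of -0.011. Both classes held genes with lower shLOXL2 values, with a TOP start in RPL36A and none at the annotated starts of RPS28, RPS26 and RPL15. In the RPS28 window above, pyrimidines follow directly after the annotated first base, an A. Its class thus rests on that base.

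Of the 10 members that are not core genes, 6 were tested, 2 fell and 0 rose, where 8.54% of all genes fell and 8.35% rose. RPS19BP1, which binds RPS19 and the deacetylase SIRT1 and is no ribosomal protein, had 43.9 and 48.7 FPKM in shLOXL2 and 74.4 and 77.8 FPKM in shControl cells. This was the lowest log2 change of all members, -0.71 ± 0.067 (SE, limma adjusted p = 0.0198). RPL7L1, a paralog of RPL7 with a role in making the large subunit, had 74.1 and 76.7 FPKM in shLOXL2 and 93.8 and 96.8 FPKM in shControl cells (log2 -0.33 ± 0.038 SE, limma adjusted p = 0.0241). RPL26L1, the paralog of RPL26, had 41.0 and 48.0 FPKM in shLOXL2 and 48.4 and 44.5 FPKM in shControl cells, and the groups overlapped. RPL36AL, a near copy of RPL36A that may share its reads, had 349.7 and 370.2 FPKM in shLOXL2 and 342 and 345 FPKM in shControl cells (log2 0.066, limma adjusted p = 0.353). RPL3L, the paralog of RPL3 in heart and skeletal muscle, stayed at 0.111 FPKM or less in all 4 libraries. Of the readthrough loci, which overlap the genes they join, RPS10-NUDT3 lay between 15.5 and 17.99 FPKM in the 4 libraries. RPL36A-HNRNPH2 had 3.04 and 1.74 FPKM in shLOXL2, against 1.52 FPKM in shControl replicate 1 and a listed 0 in shControl replicate 2 (limma adjusted p = 0.281). RPL17-C18orf32 was listed at 0 in shLOXL2 replicate 1 and had 0.262 FPKM in shLOXL2 replicate 2, with 0.933 and 0.925 FPKM in shControl cells. Of the paralogs left out by the rule, RPL22L1, the paralog of RPL22, fell to 97.8 and 94.5 FPKM in shLOXL2 cells, against 115 and 123 FPKM in shControl cells (log2 -0.30, limma adjusted p = 0.0441), RPL39L had a log2 change of -0.20 and did not pass (limma adjusted p = 0.0788), and RPS27L had one of 0.0053.

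Of the 3 ribosomal proteins that carry other symbols 0 passed limma's test, with 1 at an unadjusted p below 0.05. Of all 16987 genes tested, 6094 had such a p. RACK1, on the small subunit's head, had 3551 and 3807 FPKM in shLOXL2 and 3254 and 3309 FPKM in shControl cells (log2 0.16, limma adjusted p = 0.126). FAU, a ubiquitin-like fusion with a small subunit protein, had 644 and 676 FPKM in shLOXL2 and 708 and 738 FPKM in shControl cells (log2 -0.13, limma adjusted p = 0.141). A list of genes with TOP mRNAs outside the members had 18 tested genes and includes FAU, RACK1 and the elongation factor EEF2. Of the 18, 0 passed limma's test, with 8 at an unadjusted p below 0.05 and 13 positive, at a median of 0.074. The nearest to the threshold was EIF3H (log2 0.16, limma adjusted p = 0.0578).

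Of 48 ribosome biogenesis genes tested, 12 fell and 1 rose, where 8.54% of all genes fell and 8.35% rose. A positive change was found in 9 (18.8%), against 49.3% of all genes, and the median was -0.16. LTV1, a factor that escorts the small subunit out of the nucleus, fell to 17.99 and 18.3 FPKM in shLOXL2 cells, against 39.5 and 41.9 FPKM in shControl cells (log2 -1.12 ± 0.046 SE, limma adjusted p = 0.0116). NOP56, of the particle that methylates rRNA, fell to 295 and 294 FPKM in shLOXL2, against 372 FPKM in each of the shControl libraries (log2 -0.34, limma adjusted p = 0.0166). SBDS, which frees the large subunit of EIF6, rose to 129 and 133 FPKM in shLOXL2, against 108 FPKM in each of the shControl libraries (log2 0.27, limma adjusted p = 0.0270). Of 15 genes of RNA polymerase I, which transcribes rRNA, 4 fell and 0 rose, with POLR1F at 13.99 and 13.93 FPKM in shLOXL2 and 31.4 and 32.2 FPKM in shControl cells (log2 -1.13, limma adjusted p = 0.0115). Mitochondrial ribosomal protein genes had 8 that fell and 1 that rose of 75, a share of falls near the 8.54% of all genes, at a median of -0.046, with MRPL19 at 25.3 and 24.4 FPKM in shLOXL2 and 41.2 and 41.1 FPKM in shControl cells (log2 -0.70, limma adjusted p = 0.0129). The 31 initiation factors had 1 that rose (EIF4G3, log2 0.48) and 2 that fell (EIF5, -0.26, and EIF2S3, -0.22), and the 7 elongation factors tested had 0 calls in limma's test, with 1 at an unadjusted p below 0.05. Among 16 regulators of mTORC1 and TOP mRNAs, the S6 kinase gene RPS6KB2 (log2 0.44), EIF4EBP2 (0.53), which holds back cap-dependent initiation, and TIA1 (0.42) rose, and LARP4, which binds poly(A) tails, fell (-0.39). MYC and 7 genes related to it or its partners, a list of which 7 were tested, had 0 calls in limma's test, with 2 at an unadjusted p below 0.05. Of all 16987 genes tested, 6094 had such a p. Whether the difference between these lists and the ribosomal protein genes exceeds chance was not tested.

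**Figure D5:**
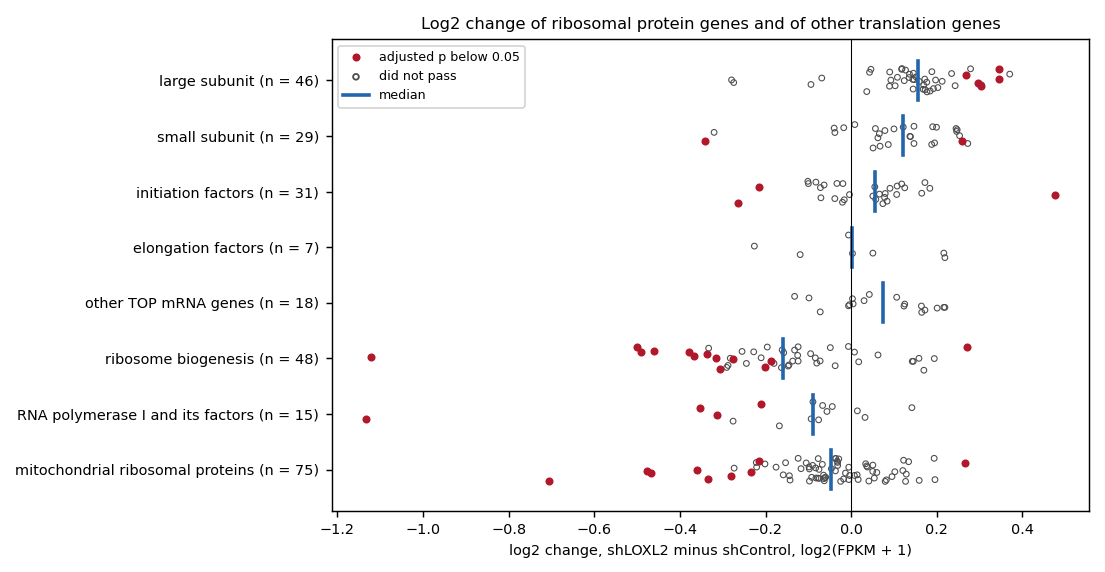
Log2 change (shLOXL2 minus shControl) of each tested gene of 8 lists, large and small subunit genes first; filled points passed an adjusted p of 0.05, bars are medians, and the spread along the vertical within a list has no meaning. The subunit medians lie at 0.16 and 0.12, against -0.16 for ribosome biogenesis and -0.046 for mitochondrial ribosomal proteins. Lists can share genes, as EEF2 is in those of elongation factors and other TOP mRNA genes.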

How the data were processed

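Total RNA was extracted with a column kit, per the labels' protocols; the sources used here do not give RNA selection or read length. The submitters' processing notes name Bowtie, Cufflinks and the GRCh37 build. The authors deposited 1 table of FPKM values for the 4 RNA libraries, and it holds no counts, so the sequencing depth behind each value is unknown and no counting interval can be given. Ensembl identifiers were paired with symbols for 39694 of 63657 genes. Peak lists of the series were not used, because no annotation of their build was at hand.

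Genes averaging 1 FPKM or more across libraries entered a fit with limma 3.58.1 in R 4.3.3, with an intensity trend, on log2(FPKM + 1), a scale that understates changes of low genes. Tests were two-sided, and p-values were adjusted by the Benjamini-Hochberg method over all genes tested. The fit was also run on simulated normal values, independent between libraries, and no conclusion here rests on that run. Tables were handled in Python 3.11.15 with pandas 2.3.3 and numpy 2.4.6. Alternatives changed the pseudocount, the filter, the scaling, the genes fitted, the variance prior, the replicate block and the libraries, and summed pseudogene rows into their genes.

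Values are named for LOXL2, for members past the threshold, for the 5 largest and 5 smallest log2 changes, for the 5 highest and 5 lowest levels, for members listed at 0 or not core genes, for the smallest-rRNA particle, stalk and exit tunnel, and for members of smallest p in the other lists. Members and lists were chosen with earlier results of these data known. Some members enter the counts, sums and medians but are not reported here by name. Start sequences came from RefSeq (GRCh38.p14).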

Additional observations from a re-analysis of the deposited data

How the results depend on the processing

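The median log2 change of the ribosomal protein genes was positive in every setting tried, from 0.013 with TPM values to 0.18 without shLOXL2 replicate 1. It was 0.085 with equal protein-coding sums and 0.071 with quantile normalization. The median of the large subunit was 0.025, 0.096 and 0.082 in these 3 scalings, and that of the small subunit was -0.0088, 0.063 and 0.045, so the small subunit's sign turned with TPM values. Leaving out 1 library at a time, the medians ranged from 0.10 to 0.18 for all members, from 0.11 to 0.20 for the large subunit and from 0.089 to 0.15 for the small subunit. Calls moved more. Of the members, 1 rose without a filter, 11 with a filter of 5 FPKM, 2 with TPM values and 40 with protein-coding genes alone, against 6 in the fit reported. With TPM values 6 members fell, with equal protein-coding sums 5 and with protein-coding genes alone 6, against 3. Of all genes, 601 rose and 542 fell without a filter, 809 rose and 2946 fell with TPM values, 1151 rose and 2082 fell with equal protein-coding sums, and 2136 rose and 2178 fell with protein-coding genes alone, against 1419 and 1450; 926 rose with a prior without trend. Leaving out 1 library, 18 to 220 genes rose and 70 to 217 fell. With the replicate number as a block, 0 genes and 0 members rose or fell in limma's test, with 5519 genes and 47 members at an unadjusted p below 0.05. Libraries with the same number deviated from their group means with a correlation of -0.0013 over all genes tested and 0.68 over the members, and with 2 pairs the numbers were not taken to pair the libraries. Among members with values given above, signs turned with TPM values in RPL30 (-0.012), RPL35 (-0.028), RPL36AL (-0.064), RPL37A (-0.022), RPL4 (-0.0034), RPLP0 (-0.041), RPLP1 (-0.041), RPLP2 (-0.038), RPS10-NUDT3 (-0.061) and RPS19 (-0.063), and with quantile normalization in RPL30 (-0.014), RPL37A (-0.015) and RPS19 (-0.049). They also turned in RPL26L1 without shLOXL2 replicate 1 (0.049, with a range of -0.17 to 0.049 over the libraries left out), and in RPS10-NUDT3 without shLOXL2 replicate 2 (-0.0047) and without shControl replicate 1 (-0.011, with a range of -0.011 to 0.14). With pseudogene rows summed, a setting chosen after seeing the data, they turned in RPL36A (0.027) and in RPL7 (from 0.18 to -0.039). RPS27A turned as well in that setting, from -0.017 to 0.044. None of these genes passed the threshold in the fit reported, and the cause was not tested. The depth of the libraries is unknown, and 2 libraries per group limit the precision.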

Other observations

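RPL39P3, the highest row named as a pseudogene of RPL39, was uneven within both groups, with 145 and 0.800 FPKM in shLOXL2 replicates 1 and 2 and with 120.4 FPKM and a listed 0 in shControl replicates 1 and 2. RPL39 itself, a protein of the exit tunnel, had 436 and 484 FPKM in shLOXL2 and 409 and 428 FPKM in shControl cells. This row was noticed after its values were seen.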
